A study of Mus musculus with 7 samples.

Results

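Tbx18 and 7 further transcription factor genes known from the mesenchyme around the ureter were followed through the compartments of the early mouse kidney. The genes are Tbx18, Tbx2 and Tbx3 of the T-box family, the teashirt genes Tshz2 and Tshz3, the LIM homeobox gene Isl1, and the forkhead genes Foxf1 and Foxf2. Each probe set annotated to exactly 1 of these genes was taken, which gave 18 probe sets of 34945 with a single gene, for 8 of 18193 genes. All 8 genes had at least 1 probe set and none was filtered out. RNA from microdissected kidneys at E12.5 and from a cell line was measured on Affymetrix microarrays. The groups are ureteric bud stalks (2 arrays), ureteric bud tips (2 arrays) and metanephric mesenchyme (2 arrays), each with 2 biological replicates, and mIMCD-3 (1 array). The stalk and the tip are parts of the epithelial tube that grows into the kidney, and the metanephric mesenchyme is the tissue that surrounds it. mIMCD-3 cells derive from mouse inner medullary collecting duct and are represented by a freshly isolated subclone grown to confluency in DMEM. The labels give no strain, sex or genotype for the embryos. None of the 7 arrays is labelled as ureteric mesenchyme, the coat of undifferentiated cells around the stalk.

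The ureteric mesenchyme turns into the smooth muscle and connective tissue of the ureter. Sonic hedgehog from the ureteric epithelium signals to it through Ptch1 and Gli factors, Foxf1 acts downstream of this signal, and Bmp4 made in the mesenchyme is needed for smooth muscle to form. Tbx18 marks and maintains this cell population, and Tbx2 and Tbx3 are also known from it. Tshz3 is needed for the ureter's smooth muscle, and Isl1 is known from mouse mutants to be required for normal kidney and ureter development.

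Values are robust multichip analysis (RMA) intensities on the log2 scale, and each log2 difference is given with its standard error (SE) from a limma fit. A gene is called when its two-sided limma p, adjusted by Benjamini-Hochberg over all 18193 genes, is under 0.05. Tissue arrays had median intensities of 45.5 to 49, and the mIMCD-3 array had 42. Replicate 1 minus replicate 2 had a standard deviation across probe sets of 0.19 in stalk, 0.35 in tip and 0.26 in mesenchyme. The 11 markers of bud epithelium measured had a summed linear intensity of 19302 and 19081 in stalk and 38382 and 35020 in tip, against 727 and 669 in mesenchyme. The 8 renal stroma markers summed to 13380 and 12941 in stalk and 2050 and 1610 in tip, against 15099 and 14728 in mesenchyme. The 8 endothelium markers summed to 2077 and 2043 in stalk and 844 and 780 in tip, against 3307 and 2980 in mesenchyme. The stalk arrays thus carried high signal for epithelial and for stromal markers, while the tip arrays carried high signal for epithelial markers and low signal for stromal markers. Such sums weigh the brightest markers most. Of the 11 bud epithelium markers, 8 were called lower in stalk than in tip (median -0.98), but Cdh1 (-0.56), Krt8 (-0.40) and Krt18 (-0.38) were not. Of the 8 renal stroma markers, Foxd1 (-1.18) and Ntn1 (-2.17) were called lower in stalk than in mesenchyme and Alx1 (1.36) higher. No marker is listed at 0, since RMA gives every probe set a positive value. The part of these markers in the results that follow was not tested, and in bulk tissue fewer cells of a type and less RNA per cell cannot be told apart.

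**Figure D1:**
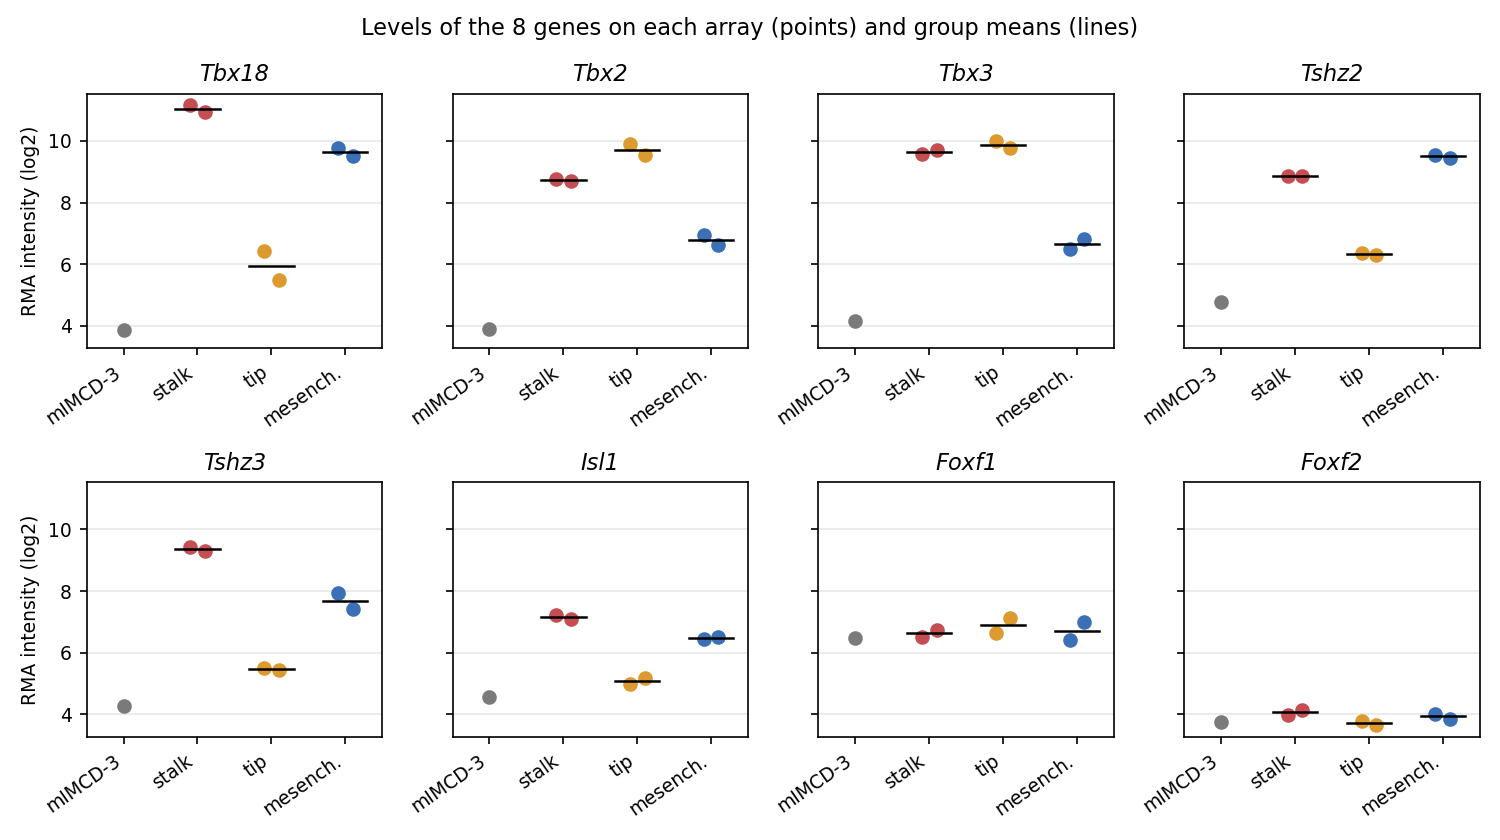
RMA intensity (log2, vertical axis) of the brightest probe set of each of the 8 genes on each array, with mIMCD-3, stalk, tip and mesenchyme from left to right. Points are arrays and black lines are means of the 2 arrays of a tissue. Tbx18, Tshz3 and Isl1 are highest in stalk, Tbx2 and Tbx3 are high in both stalk and tip, Tshz2 is highest in mesenchyme, and Foxf1 and Foxf2 differ little between groups.

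Tbx18, Tshz3 and Isl1 shared one order of levels, with stalk highest, mesenchyme next, tip lower and mIMCD-3 lowest. Tbx18 encodes a T-box repressor and is the defining gene of the ureteric mesenchyme. It had levels of 11.16 and 10.93 in stalk and 6.43 and 5.48 in tip, against 9.77 and 9.51 in mesenchyme. The groups did not overlap, and the tip arrays differed from each other by more than the arrays of the other tissues. Tbx18 was 1.41 ± 0.29 (SE) higher in stalk than in mesenchyme, a 2.65-fold difference (adjusted p = 0.0306), and 3.68 ± 0.29 lower in tip than in mesenchyme (difference -3.68, adjusted p = 8.49e-05). Stalk exceeded tip by 5.09 ± 0.29, or 34.1-fold (adjusted p = 4.94e-05). The tip readings stood at the 61.5 and 47.8 percentile of all probe sets for Tbx18, 49.6 and 47.2 for Tshz3 and 42.3 and 42.8 for Isl1. Whether these tip readings stood above background was not tested. A further probe set of Tbx18 read 9.64 and 9.57 in stalk and 4.64 and 4.48 in tip, against 8.12 and 7.64 in mesenchyme. On that probe set stalk was 1.72 ± 0.18 above mesenchyme (adjusted p = 0.0017, from the limma fit over all probe sets, as for every single probe set below the brightest) and 5.05 ± 0.18 above tip. The call of Tbx18 between stalk and mesenchyme on the brightest probe set was lost without any 1 of the 4 arrays compared, with differences from 1.28 to 1.54 and adjusted p = 0.0644 without mesenchyme replicate 1, 0.138 without mesenchyme replicate 2, 0.119 without stalk replicate 1 and 0.0523 without stalk replicate 2.

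Tshz3 encodes a zinc finger protein that partners with myocardin in ureteric smooth muscle differentiation. Its single probe set read 9.43 and 9.30 in stalk and 5.49 and 5.44 in tip, against 7.94 and 7.43 in mesenchyme. Both stalk arrays lay above both mesenchyme arrays, and both tip arrays lay below them. The difference between stalk and mesenchyme was 1.68 ± 0.18, or 3.20-fold (adjusted p = 0.00136), that between tip and mesenchyme was -2.22 ± 0.18 (adjusted p = 0.000107), and that between stalk and tip was 3.90 ± 0.18, or 14.9-fold (adjusted p = 2.89e-05). These calls of Tshz3 held without any 1 of the 6 tissue arrays.

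Isl1 encodes a LIM homeodomain factor that is also known from motor neurons and cardiac progenitors. It had levels of 7.22 and 7.09 in stalk and 5.0 and 5.19 in tip, against 6.46 and 6.50 in mesenchyme. The groups did not overlap. Stalk was 0.67 ± 0.13 above mesenchyme (adjusted p = 0.026), tip had a difference from mesenchyme of -1.38 ± 0.13 (adjusted p = 0.000253), and stalk was 2.06 ± 0.13 above tip (adjusted p = 8.9e-05). The other probe set of Isl1 spanned a wider range, with 8.12 and 8.08 in stalk and 3.71 and 4.52 in tip, against 6.98 and 7.02 in mesenchyme. Its differences were 1.10 ± 0.24 for stalk against mesenchyme, which was not called (adjusted p = 0.0592), -2.88 ± 0.24 for tip against mesenchyme and 3.98 ± 0.24 for stalk against tip. The stalk call of Isl1 was lost without any 1 of the 4 arrays compared, with differences from 0.61 to 0.74 and adjusted p = 0.148 without mesenchyme replicate 1, 0.129 without mesenchyme replicate 2, 0.311 without stalk replicate 1 and 0.144 without stalk replicate 2. Of 8 neuron and neural crest markers measured, 0 were higher (0 at an unadjusted p under 0.05) and 4 lower in stalk than in mesenchyme by limma, with a median difference of -1.14. In tip against mesenchyme 0 were higher and 4 lower (median -1.36), and in stalk against tip 2 were higher and 0 lower (median 0.13). Without the dimmest 40% of genes these counts were 1 lower, 2 lower and 1 higher, and the last was also 1 without stalk replicate 1 or tip replicate 1. The part of these markers in the Isl1 values was not tested.

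RefSeq promoter windows, from 250 bases before to 50 bases after the start, were held for 5 of the 8 genes, and those of the 3 genes that were highest in stalk are shown to set their sequence side by side. The windows are chr9:87731211-87731510 on the minus strand for Tbx18, chr7:36697868-36698167 on the plus strand for Tshz3 and chr13:116309639-116309938 on the minus strand for Isl1, all in GRCm38.p6 and written 5′ to 3′. Capitals mark the CCAAT box in either orientation.
Tbx18: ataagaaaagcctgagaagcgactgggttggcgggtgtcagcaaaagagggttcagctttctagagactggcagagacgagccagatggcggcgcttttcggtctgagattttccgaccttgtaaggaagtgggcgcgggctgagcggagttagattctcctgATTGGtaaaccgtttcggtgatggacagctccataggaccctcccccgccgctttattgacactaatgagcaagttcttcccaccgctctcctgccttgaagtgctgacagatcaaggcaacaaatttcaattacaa
Tshz3: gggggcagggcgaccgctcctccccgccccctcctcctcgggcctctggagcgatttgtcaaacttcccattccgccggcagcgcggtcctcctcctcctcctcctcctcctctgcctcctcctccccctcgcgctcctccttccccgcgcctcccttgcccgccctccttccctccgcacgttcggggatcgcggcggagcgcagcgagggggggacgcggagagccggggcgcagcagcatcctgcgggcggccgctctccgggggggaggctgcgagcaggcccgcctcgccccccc
Isl1: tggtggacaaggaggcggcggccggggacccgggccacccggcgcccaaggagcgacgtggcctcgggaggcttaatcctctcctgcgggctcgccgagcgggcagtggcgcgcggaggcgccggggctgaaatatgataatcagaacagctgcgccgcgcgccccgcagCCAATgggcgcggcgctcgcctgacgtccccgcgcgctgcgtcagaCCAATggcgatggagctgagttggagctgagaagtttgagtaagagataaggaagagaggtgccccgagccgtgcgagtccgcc
The Tshz3 and Isl1 windows were rich in G and C, at 76.0% and 69.0%, while that of Tbx18 held 51.7%, close to the median of 52.7% over 32851 promoters. CpG dinucleotides numbered 15 in the Tbx18 window, 33 in Tshz3 and 37 in Isl1, against a median of 7. The 4 motifs AGGTGTG (T-box), TGGGTGG (GLI), TGTTTAC (forkhead) and CTTTGAT (LEF/TCF), searched on both strands, were not among the letters of any of the 5 windows, which include those of Tshz2 and Foxf2. Of all promoters in the table, 5.84%, 9.3%, 3.65% and 3.73% held them in that order. CCAAT occurred 1 time each in the Tbx18 and Tshz2 windows, 2 times in that of Isl1, and not in those of Tshz3 and Foxf2. Of all promoters, 37.4% held at least 1. TATAAA, held by 13.6%, occurred in none of the 5 windows. The CCAAT and TATAAA searches were added after the windows had been seen.

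Tbx2 and Tbx3, closely related T-box repressors, were high in both parts of the bud. Tbx2 had levels of 8.75 and 8.69 in stalk and 9.91 and 9.53 in tip, against 6.96 and 6.63 in mesenchyme, from its single probe set. The groups did not overlap, and tip was the highest. Tbx2 was 1.92 ± 0.18 higher in stalk than in mesenchyme (adjusted p = 0.000657) and 2.92 ± 0.18 higher in tip, or 7.58-fold (adjusted p = 2.5e-05). Between stalk and tip its difference was -1.0 ± 0.18 (adjusted p = 0.0104), so Tbx2 was lower in stalk than in tip by 2.0-fold. That call was lost without stalk replicate 2 (difference -0.97, adjusted p = 0.0606).

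Tbx3 had levels of 9.58 and 9.70 in stalk and 10 and 9.76 in tip, against 6.51 and 6.81 in mesenchyme. Every bud array lay above every mesenchyme array. Tbx3 was 2.98 ± 0.16 higher in stalk, or 7.88-fold (adjusted p = 4.63e-05), and 3.22 ± 0.16 higher in tip, or 9.31-fold (adjusted p = 1.08e-05), each against mesenchyme. Its stalk and tip levels stood next to each other, with a difference of -0.24 ± 0.16 that was not called (adjusted p = 0.43, 95% interval -0.61 to 0.13). Tbx3 has 5 probe sets, and they differed in what they showed. Besides the brightest, 1437479_x_at gave 3.36 ± 0.14 for stalk and 3.47 ± 0.14 for tip against mesenchyme, although the suffix marks probes that can match other transcripts. Probe sets 1439567_at and 1445757_at gave smaller differences from mesenchyme, of 0.30 and 0.72 in stalk, neither called, and of 0.89 and 1.19 in tip, both called. The dimmest, 1444594_at, lay between the 18.1 and 28.6 percentile of all probe sets on every array, and its differences from mesenchyme were -0.0049 in stalk and 0.19 in tip, neither called.

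**Figure D2:**
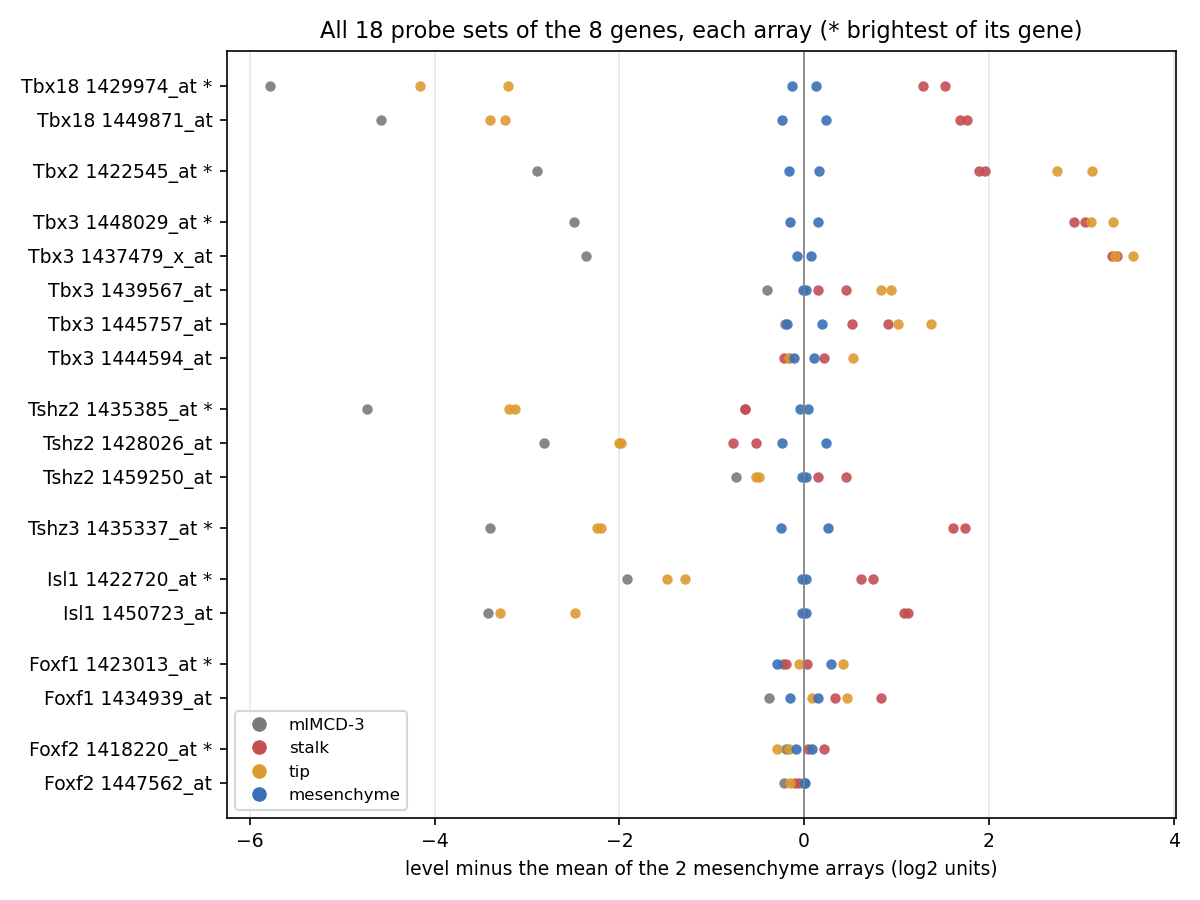
Level of each of the 18 probe sets on each array minus the mean of the 2 mesenchyme arrays (log2 units, horizontal axis), with 1 row per probe set and colours for mIMCD-3, stalk, tip and mesenchyme. Stars mark the brightest probe set of a gene. Both probe sets of Tbx18 and of Isl1 place stalk to the right and tip to the left of mesenchyme, while the 5 probe sets of Tbx3 range from 3.36 to -0.0049 in stalk.

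Tshz2, the other teashirt gene of the group, had the reverse order of stalk and mesenchyme. It read 8.87 and 8.87 in stalk and 6.38 and 6.31 in tip, against 9.55 and 9.46 in mesenchyme. The 3 tissues did not overlap. Stalk was lower than mesenchyme (difference -0.64 ± 0.12, adjusted p = 0.0232) and tip was lower still (difference -3.16 ± 0.12, or 8.96-fold, adjusted p = 4.24e-06). Stalk exceeded tip by 2.53 ± 0.12 (adjusted p = 2.93e-05). Of its 2 other probe sets, 1428026_at gave -0.65 ± 0.18 between stalk and mesenchyme, not called (adjusted p = 0.161), and 1459250_at, a dim probe set, gave 0.30 ± 0.14, also not called (adjusted p = 0.574). Both placed stalk above tip, by 1.35 and 0.81. Between tip and mesenchyme 1428026_at gave -2.0 ± 0.18, 1459250_at gave -0.51 ± 0.14, not called (adjusted p = 0.0732), and the mean of the 3 probe sets gave -1.89. The stalk call of Tshz2 was lost with the mean of its probe sets (difference -0.33, adjusted p = 0.214) and without any 1 of the 4 arrays compared, with adjusted p = 0.16 without mesenchyme replicate 1, 0.108 without mesenchyme replicate 2, 0.252 without stalk replicate 1 and 0.228 without stalk replicate 2. Tshz1, the third teashirt gene, had a difference of -0.71 ± 0.21 between stalk and mesenchyme that was not called (adjusted p = 0.131), and it was lower in tip than in mesenchyme (difference -2.07 ± 0.21, adjusted p = 0.000324).

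Foxf1 and Foxf2, forkhead genes of hedgehog-responsive mesenchyme, were not called in any of the 3 contrasts. Foxf1 read 6.51 and 6.74 in stalk and 6.65 and 7.13 in tip, against 6.42 and 7.0 in mesenchyme. All 3 tissues overlapped. Its difference between stalk and mesenchyme was -0.08 ± 0.24 (95% interval -0.64 to 0.47), and its sign changed with the probe set: 1434939_at gave 0.58 ± 0.22 (adjusted p = 0.352), with levels of 5.72 and 6.22 in stalk and 5.47 and 5.85 in tip, against 5.24 and 5.54 in mesenchyme. On that probe set both stalk arrays lay above both mesenchyme arrays. Foxf2 read 3.98 and 4.16 in stalk and 3.78 and 3.65 in tip, against 4.03 and 3.85 in mesenchyme. These levels stood between the 13.9 and 26.4 percentile of all probe sets on the tissue arrays, and the other Foxf2 probe set was dimmer still, between 2.1 and 4.5. Foxf2 had its largest difference between stalk and tip, at 0.35 ± 0.14 (adjusted p = 0.188, 95% interval 0.03 to 0.68). RMA gives no detection calls, so whether the Foxf2 probe sets stood above background was not tested.

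Across the 8 genes, 5 were higher and 1 lower in stalk than in mesenchyme, while 4.3% of all genes tested were called higher and 1.24% lower. The median difference of the 8 was 1.04, against -0.04 over all genes. In tip against mesenchyme, 2 of the 8 were higher and 4 lower, beside 7.38% and 8.37% of all genes, with a median of -0.80 against 0.01. In stalk against tip, 4 were higher and 1 lower, beside 6.97% and 2.86% of all genes, with a median of 1.2 against -0.07. The 2 contrasts against mesenchyme share the mesenchyme arrays, so their values are set side by side and are not independent. Without any 1 stalk or mesenchyme array the stalk count against mesenchyme was 3 higher (Tbx2, Tbx3 and Tshz3) and 0 lower in limma. At an unadjusted p under 0.05 with all arrays, the genes higher and lower in stalk were the same as those called.

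**Figure D3:**
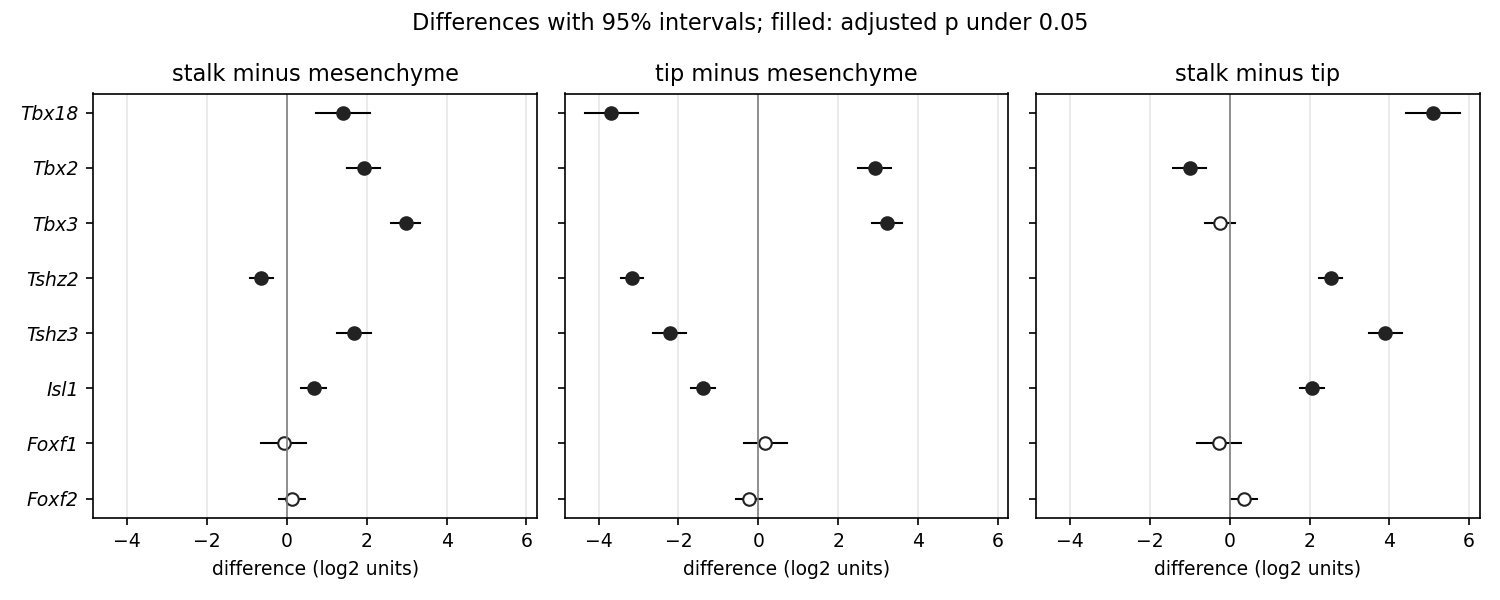
Differences (log2 units, horizontal axes) of the 8 genes for stalk minus mesenchyme, tip minus mesenchyme and stalk minus tip, with 95% intervals of the limma fit as lines and filled points for an adjusted p under 0.05. Tbx18, Tshz3 and Isl1 lie right of 0 in the first panel and left of 0 in the second, while Tbx2 and Tbx3 lie right of 0 in both.

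In mIMCD-3 the brightest probe sets of these genes were dim, apart from that of Foxf1. With 1 array there is no test, and the array was added by the authors to earlier tissue arrays, so cell line and array batch cannot be told apart. Tbx18 read 3.86 in mIMCD-3, against a mean of 11.05 in stalk, a difference of -7.19. The mIMCD-3 readings of Tbx18, Tbx2, Tbx3, Tshz2, Tshz3 and Isl1 lay between the 22.1 and 40 percentile of all probe sets, and whether they stood above background was not tested, so the sizes of these differences are those of the signals. Tbx3 read 4.17 in mIMCD-3 (difference from stalk -5.47), Tshz3 4.28 (-5.08), Tbx2 3.90 (-4.82), Tshz2 4.77 (-4.10) and Isl1 4.56 (-2.59). Foxf1 read 6.48 in mIMCD-3 (difference from stalk -0.15) and Foxf2 read 3.74. The other Foxf1 probe set, 1434939_at, read 5.01 in mIMCD-3, at the 44.3 percentile, against a mean of 5.97 in stalk. This reading lay below all tissue arrays, of which the lowest, mesenchyme replicate 1, read 5.24. Whether the Foxf1 readings in mIMCD-3 stood above background was not tested. Lower in mIMCD-3 by at least 1 log2 unit were 6 of the 8 genes against stalk, where 10.3% of all genes were, 5 against tip (8.38% of all genes) and 6 against mesenchyme (9.78%). None was higher by that much in these 3 comparisons, where 9.8%, 10.1% and 11.2% of all genes were. On the brightest probe sets the mIMCD-3 level lay below every tissue array for 6 of the 8 genes, against 34.4% of all genes. For Tbx2 and Tbx3 the largest of these differences were against tip, at -5.82 and -5.72. Cdh1, the E-cadherin gene of epithelia, read 10.88 in mIMCD-3, against means of 10.47 in stalk and 11.03 in tip. The other bud epithelium markers went both ways. Krt8, Krt18 and Grhl2 read above their stalk and tip means in mIMCD-3, at 12.31, 12.01 and 10.30. Esrp1, at 10.47, lay between its means. Epcam, Cldn4, Wnt11, Gata3, Ret and Calb1 read below both means, at 10.79, 9.41, 6.65, 4.48, 4.12 and 3.38. The Calb1 means were 12.53 in stalk and 13.65 in tip.

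Genes of the hedgehog pathway were examined next, because the stalk epithelium is the known source of this signal. Shh, the ligand gene, read 8.83 and 8.69 in stalk and 7.85 and 7.72 in tip, against 6.03 and 5.99 in mesenchyme. It was 2.75 ± 0.13 higher in stalk and 1.77 ± 0.13 higher in tip than in mesenchyme (adjusted p = 2.42e-05 and 6.01e-05), and 0.97 ± 0.13 higher in stalk than in tip (adjusted p = 0.00262). The pathway's response genes were highest in stalk. Gli1, a transcriptional effector, was 1.40 ± 0.15 above mesenchyme and 1.96 ± 0.15 above tip, Hhip, a ligand-binding inhibitor, 1.40 and 1.68, and Ptch1, the receptor, 1.22 and 1.53, all called. Of 11 hedgehog genes measured, 4 were higher in stalk than in mesenchyme and 1 was lower (median 0.31), and in tip 2 were higher and 3 lower (median -0.28). The gene lower in stalk was Gas1, a co-receptor gene (difference -0.93 ± 0.12), which was named after its values were seen, and this count was 0 without stalk replicate 2.

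Genes of the BMP pathway and of smooth muscle were counted in the same way. Bmp4, a ligand gene known to act upstream of Tshz3 in the mouse ureter, read 10.17 and 9.97 in stalk and 7.40 and 7.34 in tip, against 9.15 and 8.92 in mesenchyme. Its differences were 1.04 ± 0.14 for stalk against mesenchyme (adjusted p = 0.00512), -1.67 ± 0.14 for tip against mesenchyme (adjusted p = 0.000148) and 2.70 ± 0.14 for stalk against tip. The stalk call of Bmp4 was lost without stalk replicate 1 (difference 0.93, adjusted p = 0.059). Of 18 BMP pathway genes, 2 were higher in stalk than in mesenchyme (Bmp4 and Bmp5) and 0 lower by limma (3 and 1 without adjustment at p under 0.05, and as many with the replicate number as a block), with a median of 0.07. The higher count was 0 without stalk replicate 1 and 1 without stalk replicate 2 or mesenchyme replicate 2, and the lower count was 1 without either tip array. In tip 1 was higher and 7 lower, and the lower count was 4 without either mesenchyme array. Of 12 smooth muscle genes, 0 were higher and 3 lower in stalk than in mesenchyme in limma (median -0.26), and 0 were higher and 5 lower in tip (median -0.36). At an unadjusted p under 0.05 the higher count was likewise 0 in both contrasts. In stalk against tip 4 of the 12 were higher and 0 lower (median 0.22), with 1 lower at an unadjusted p under 0.05 and also under the block, and the higher count was 2 without either stalk array. The lower ones in stalk were Tpm2 (-1.74 ± 0.13), Des (-1.09 ± 0.12) and Tagln (-0.82 ± 0.17), which encode tropomyosin, desmin and transgelin. Acta2, the smooth muscle actin gene, had a difference of -0.64 ± 0.15 that was not called (adjusted p = 0.0527). The Tagln call was lost without any 1 stalk or mesenchyme array (adjusted p from 0.108 to 0.237), and that of Des with the mean of its probe sets (difference -0.41, adjusted p = 0.125).

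Further genes known from the ureteric mesenchyme had mixed orders. Of 7 measured, 4 were higher in stalk than in mesenchyme and 1 was lower (median 0.67), and in tip 1 was higher and 4 lower (median -0.74). The zinc finger gene Gata2 read 10.16 and 10.38 in stalk and 8.37 and 8.36 in tip, against 8.27 and 8.32 in mesenchyme, and was 1.97 ± 0.13 higher in stalk than in mesenchyme. Sox9, a regulator that both bud epithelium and ureteric mesenchyme express, was 1.82 ± 0.21 higher in stalk and 1.28 ± 0.21 higher in tip. Agtr2, an angiotensin receptor gene, was 0.85 ± 0.16 higher in stalk and 1.88 lower in tip (difference -1.88 ± 0.16). Aldh1a2, for an enzyme of retinoic acid synthesis, was lower in both (-0.83 ± 0.12 in stalk and -2.96 ± 0.12 in tip). The stalk call of Agtr2 was lost without mesenchyme replicate 2, stalk replicate 1 or stalk replicate 2 (adjusted p from 0.119 to 0.134), and that of Aldh1a2 without mesenchyme replicate 1, stalk replicate 1 or stalk replicate 2 (adjusted p from 0.0503 to 0.0869). The higher count in stalk was 2 without either stalk array or without mesenchyme replicate 2, and the lower count was 0 without either stalk array or without mesenchyme replicate 1. In the Wnt list 3 of 9 genes were higher in stalk and 0 lower by limma, with a median of 0.52 (6 and 1 at an unadjusted p under 0.05, 5 and 1 with the block, and 5 higher without either tip array), and in tip 4 were higher and 4 lower (median -0.12). Dkk2, a secreted Wnt modulator, stood out with 8.06 and 7.80 in stalk and 3.76 and 3.76 in tip, against 5.24 and 4.91 in mesenchyme. The epithelial ligand gene Wnt9b was 2.76 ± 0.24 higher in stalk and 3.34 ± 0.24 higher in tip, and Wnt7b was 1.07 ± 0.14 and 0.99 ± 0.14 higher.

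Markers of the neighbouring cell types had their own patterns beside those of the 8 genes. Of 8 renal stroma markers, 1 was higher and 2 lower in stalk than in mesenchyme (median -0.30), 0 were higher and 7 lower in tip (median -3.33), and 8 were higher in stalk than in tip (median 2.84). Foxd1, the stromal forkhead gene, was lower in stalk than in mesenchyme (difference -1.18 ± 0.17), whereas Alx1 was 1.36 ± 0.26 higher, a call lost without stalk replicate 1 or mesenchyme replicate 2 (adjusted p = 0.0895 and 0.11). Of 10 nephron progenitor markers, 0 were higher and 8 lower in stalk (median -1.70), with Six2 at -2.26 ± 0.12 and Meox1 at -2.87 ± 0.17, and 0 were higher and 9 lower in tip (median -3.21). Of 8 endothelium markers, 0 were higher and 4 lower in stalk (median -0.60), and 0 were higher and 8 lower in tip (median -1.93). The endothelium count in stalk was 7 lower with the block, 2 with arrays centred on their medians, 0 without mesenchyme replicate 1, mesenchyme replicate 2 or stalk replicate 1, and 1 without stalk replicate 2. Of 11 bud epithelium markers, 10 were higher in stalk (median 4.84) and 11 in tip (median 5.52), and 0 were lower in either. At an unadjusted p under 0.05 every count of 0 for these lists in limma stayed at 0.

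**Figure D4:**
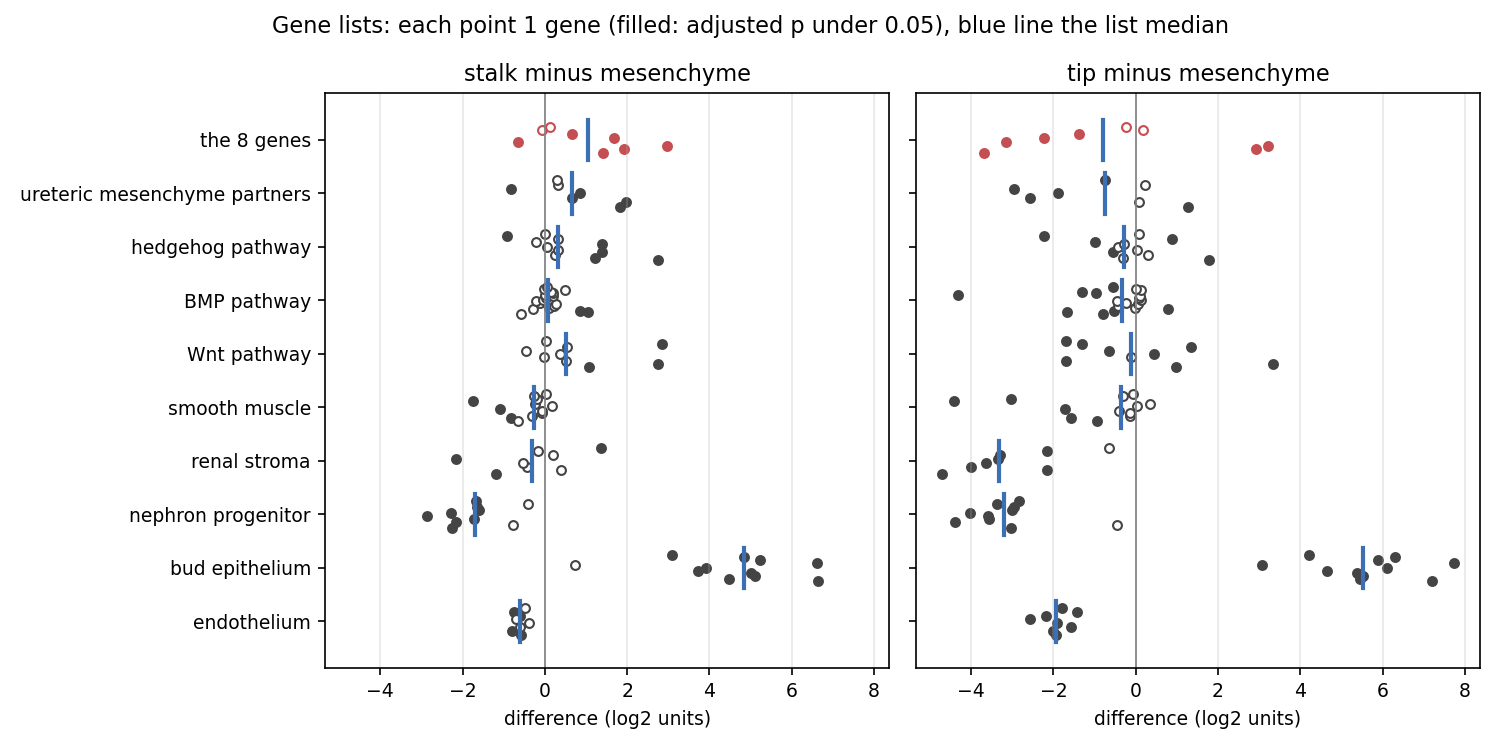
Differences (log2 units, horizontal axes) for stalk minus mesenchyme and tip minus mesenchyme of the 8 genes (red) and of 9 lists (dark grey), with 1 point per gene, filled for an adjusted p under 0.05, and the list median as a blue line. The median of the 8 genes is 1.04 in stalk and -0.80 in tip, while that of the stroma list is -0.30 in stalk and -3.33 in tip.

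Relatives and genomic neighbours of the 8 genes were compared to see how far the families moved. Of 12 other T-box genes measured, 0 were higher or lower in stalk than in mesenchyme by limma, beside 4.3% and 1.24% of all genes. With shares this small, a count of 0 among 12 genes does not show that the family was unchanged. Their levels ranged widely, with stalk means from 2.85 for Tbr1 to 8.49 for Mga. Whether the dim ones stood above background was not tested. Tbx1 was lower in stalk at an unadjusted limma p of 0.0186. In tip, Tbx1 was called lower (difference -0.70 ± 0.12, adjusted p = 0.00645). Tbx4, which neighbours Tbx2 in the genome, read 4.30 and 4.33 in stalk and 4.20 and 4.44 in tip, against 4.33 and 4.36 in mesenchyme. Tbx5, the neighbour of Tbx3, read 5.32 and 5.56 in stalk and 5.37 and 5.81 in tip, against 5.49 and 5.80 in mesenchyme. Neither was called in any contrast. Among 20 other forkhead and teashirt genes, 3 were higher and 2 lower in stalk than in mesenchyme (median -0.05), and 0 were higher in limma (1 at an unadjusted p under 0.05) and 9 lower in tip (median -0.35). The lower count in stalk was 5 with the block or without either tip array, and 1 without mesenchyme replicate 1 or stalk replicate 2. The 3 higher genes were Foxa1 (2.16 ± 0.18), Foxq1 (1.16 ± 0.17) and Foxl1 (0.84 ± 0.14). Foxl1 and Foxc2 lie beside Foxf1, and Foxq1 and Foxc1 lie beside Foxf2. Foxc2 and Foxc1 read high in stalk (10.48 and 10.47, and 9.90 and 9.85) and in mesenchyme (10.64 and 10.72, and 10.56 and 10.36), and were lower in tip than in mesenchyme by 7.91-fold and 14.3-fold. The call of Foxl1 between stalk and mesenchyme was lost without either stalk array or mesenchyme replicate 1 (adjusted p from 0.0842 to 0.101). Of 7 neighbours in all, 2 were higher and 0 lower in stalk than in mesenchyme by limma. The lower count was 1 with the block, the trend and robust variance, an added 16 before log2 or the 2 groups alone. Without the dimmest 40% of genes the lower count was 1 and the higher count was 1. The lower count also rose without either tip array, and the higher count also fell without either stalk array or mesenchyme replicate 1.

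The genes whose levels over the 7 arrays were most like those of a member were sought among 3537 genes with a standard deviation of at least 0.5, by Pearson's r as a description. The arrays share 2 replicates per tissue and 1 normalisation, and any gene with the same tissue order can reach a high r. A high r alone therefore does not set a gene apart, and how many genes reach a given r was not counted. For Tbx18 the 6 closest were Iigp1, Olfml3, Mylip, Gata6, Zeb2 and Col25a1, with r from 0.9963 to 0.9984. Gata6, a zinc finger gene from the list of ureteric mesenchyme genes, read 8.97 and 8.94 in stalk and 5.85 and 5.56 in tip, against 8.32 and 8.24 in mesenchyme. Its stalk difference from mesenchyme of 0.67 ± 0.14 (adjusted p = 0.0363) was not called without any 1 of the 4 arrays compared (adjusted p from 0.13 to 0.291), nor with the mean of its probe sets (difference 0.39, adjusted p = 0.126). For Tshz3 the closest gene was Bmp4 (r = 0.9983), followed by Ptx3, and for Isl1 they were Adcy2 and then Bmp4 (r = 0.9948). For Tbx2 the closest was the zinc finger gene Prdm16 (r = 0.999), with 8.74 and 8.65 in stalk and 9.97 and 9.75 in tip, against 6.60 and 6.41 in mesenchyme, then AI467606. For Tbx3 they were 4930426D05Rik and Id4, and for Tshz2 Kctd12b and Ldb2. Foxf1 and Foxf2 had no match above 0.93, with Aqp11 and Fcgr2b nearest to Foxf1 and Eml1 and Socs3 nearest to Foxf2. Between members, r was 0.984 for Tbx18 with Tshz3 and with Isl1, 0.978 for Tbx2 with Tbx3, and 0.30 for Tbx18 with Tbx2.

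**Figure D5:**
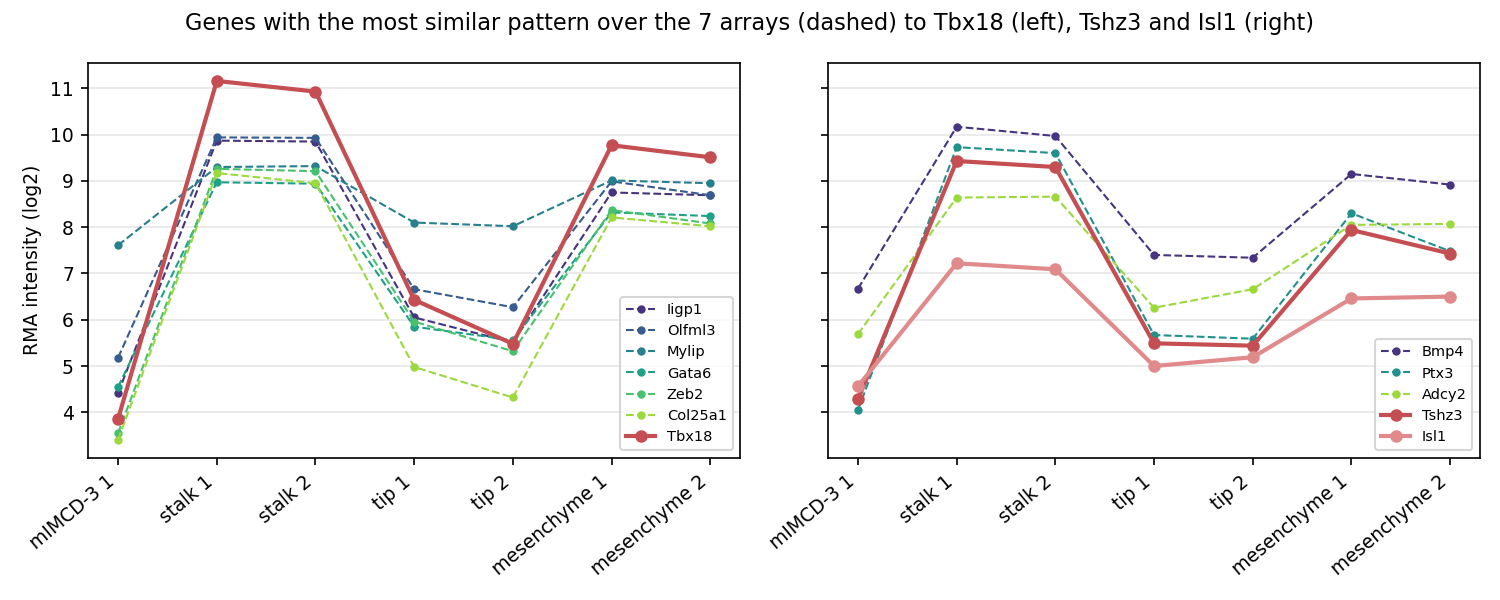
RMA intensity (log2, vertical axis) on each of the 7 arrays for Tbx18 with its 6 closest genes (left) and for Tshz3 and Isl1 with the closest genes of both (right). Members are solid lines and the other genes dashed. Each line has its highest values on the 2 stalk arrays, such as 11.16 and 10.93 for Tbx18.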

How the data were processed

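Total RNA from dissected kidney tissue and from cultured cells was measured on Affymetrix Mouse Genome arrays. The authors computed expression values over all arrays together by robust multichip analysis (RMA), per the series' design text and the submitters' processing notes. The deposited values are RMA intensities on a linear scale, and log2 was taken of these deposited values here. Probe sets were named from the platform annotation, with 34945 of 45101 carrying exactly 1 gene, and each of 18193 genes was represented by its brightest probe set over the 7 arrays. limma 3.58.1 in R 4.3.3 (lmFit and eBayes) was fitted to the 6 tissue arrays with 1 coefficient per group, leaving 3 residual degrees of freedom before moderation, with two-sided p adjusted by Benjamini-Hochberg over all genes. The same model over all probe sets gave the values of single probe sets. mIMCD-3, with 1 array, was described by sizes of at least 1 log2 unit. The script was tested on simulated data.

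The labels call the tissue replicates biological but do not say how many embryos each pooled. The p-values rest on the spread between these arrays, pooled over the tissue groups and moderated over genes. They cannot speak of the variation between embryos. Arrays of the same replicate number deviated together from their group means (correlations 0.39, 0.57 and 0.43 for stalk with mesenchyme, tip with mesenchyme and stalk with tip), and the numbers were therefore treated as pairs in a fit with a block. This pairing comes from the data and not from the labels. Genes named by rule are the 8 members, up to 4 genes per list with the largest difference between stalk and mesenchyme, 13 fixed genes, and the 6 genes most like Tbx18 and 2 most like each other member. Gas1, Tbr1, Mga and some bud epithelium markers were named outside this rule, with their values known. The members and the lists were chosen with earlier results of these data known. Other choices tried are the block, the variance model, centring, an added 16 before log2, the dimmest 40% of genes left out, the mean of a gene's probe sets, the 2 groups alone and each array left out. The precision is limited by the number of arrays, and RMA values carry no detection calls.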

Additional observations from a re-analysis of the deposited data

Results flagged for a closer look

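For 5 of the 8 genes the difference from mesenchyme in stalk differed from that in tip, by the limma test of stalk minus tip, in which the mesenchyme arrays cancel. Of all genes tested, 6.97% were called higher and 2.86% lower in that contrast. The difference of differences was 5.09 for Tbx18 (1.41 in stalk and -3.68 in tip, adjusted p = 4.94e-05), 3.90 for Tshz3 (1.68 and -2.22, adjusted p = 2.89e-05) and 2.06 for Isl1 (0.67 and -1.38, adjusted p = 8.9e-05), and these genes lay on opposite sides of mesenchyme. It was 2.53 for Tshz2 (-0.64 and -3.16, adjusted p = 2.93e-05), which was lower in both, and -1.0 for Tbx2 (1.92 and 2.92, adjusted p = 0.0104), which was higher in both. The renal stroma markers were also higher in stalk than in tip, with all 8 called and a median of 2.84, and the 8 endothelium markers were all called higher with a median of 1.34. Of 10 nephron progenitor markers 9 were called higher (median 1.36), and of 11 bud epithelium markers 8 were called lower (median -0.98), or 4 without stalk replicate 2. Their part in these differences was not tested.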

How the results depend on the processing

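Blocking on the replicate number (pairing) changed no call of the 8 genes, and neither did the trend and robust variance, centring, adding 16 before log2 or fitting the 2 groups alone. With the block 5 genes were higher and 1 lower in stalk than in mesenchyme. Without 1 array the count of genes higher in stalk than in mesenchyme ranged from 3 to 5, the count lower from 0 to 1, and the count lower in stalk than in tip from 0 to 1 (0 without stalk replicate 2). With the mean of the probe sets, the count lower in stalk than in mesenchyme was 0. Single probe sets, added after the data were seen, turned the stalk minus mesenchyme difference to -0.0049 for Tbx3 (1444594_at), 0.30 for Tshz2 (1459250_at), 0.58 for Foxf1 (1434939_at) and -0.072 for Foxf2 (1447562_at). The uncalled Foxf1 difference between stalk and mesenchyme also changed sign with the mean of probe sets (0.25), without mesenchyme replicate 2 (0.21) and without stalk replicate 1 (0.03), with a range from -0.38 to 0.21 over the arrays left out. Between tip and mesenchyme it was -0.11 without mesenchyme replicate 1 and -0.06 without tip replicate 2, in a range up to 0.47, and between stalk and tip 0.024 with the mean of probe sets and 0.31 with 1434939_at. The cause was not tested. Foxf2 had no value without the dimmest 40% of genes. For the other genes named by rule, 102 of 1973 values recomputed under an alternative lost a call, in 33 of 153 called differences, and 0 changed sign. Where an array was left out, the lone array of its group was assumed to vary like the other groups.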
